A study of Homo sapiens with 32 samples.

Results

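The 10 immediate early genes of the EGR, KLF and IER families were followed in HGrC1 cells, an established line of non-luteinised human granulosa cells, under long-term exposure to perfluorooctane sulfonate (PFOS), a persistent fluorinated surfactant. They were taken by gene symbol and were EGR1, EGR2 and EGR3, KLF2, KLF4, KLF6 and KLF10, and IER2, IER3 and IER5. All 10 had values, of 18583 genes with values among 47137 gene entries. On GRCh38.p14, in RefSeq, the genes that carried the calls against control lie at chr5:138465479-138469303 (EGR1), chr9:107484852-107489769 (KLF4), chr10:3775996-3785209 (KLF6), chr6:30743199-30744547 (IER3) and chr1:181088700-181092900 (IER5), and each value is for the whole gene.

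RNA was measured in 32 libraries, 4 in each of 8 groups. The groups were a vehicle control with 0.05% DMSO and 0.01, 0.1 and 1 µM PFOS, each after 6 and after 12 weeks. Each of the 4 replicates was a vial of the same line, thawed and grown apart and then split over the exposures, so replicate numbers name vials and all vials share 1 genetic background. All groups were grown with fetal bovine serum and were re-dosed at every passage. The sample labels name estradiol, and the study's methods testosterone, as the steroid added to the medium of all groups. GATA4, a granulosa transcription factor, lay between 111 and 156 CPM (read counts scaled to a common library size) in the libraries, and WT1 between 55.3 and 79.1 CPM. The defining granulosa genes FOXL2 (0.549 to 2.03 CPM) and CYP19A1, the aromatase gene (0 to 0.0546 CPM), were at or near 0, and FSHR had no values. Of 15 granulosa genes listed, 14 had values and 11 were abundant enough to be tested. The 14 summed to 237 to 292 CPM per library, much of it from GATA4 and WT1.

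Immediate early genes are transcribed within minutes of a stimulus from factors already present in the cell, and their RNAs are short-lived. Serum and growth factors reach many of them through the ERK kinases and serum response factor, which binds CArG boxes near their start sites. EGR proteins are zinc-finger activators held in check by the corepressors NAB1 and NAB2, KLF proteins are zinc-finger factors that bind GC-rich and CACC sequences, and the IER proteins act on survival and stress signalling. In granulosa cells EGR1 is known to be induced by the ovulatory gonadotropin surge.

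Promoter windows from RefSeq on GRCh38.p14, 250 bases before and 50 after the gene start, existed for 7 of the 10 genes (9 windows, since EGR2 had 3 starts). Of all 35116 windows, 1.29% held a CArG box and 9.43% held GCGNGGGCG, the motif that EGR proteins bind, with both strands searched. CArG boxes lay in EGR1, at positions -105 and -83 from the start, and at the third EGR2 start, at -71. No other member window held one, the other 2 EGR2 windows included. GCGNGGGCG was matched in EGR1 (-198), KLF4 (-189), KLF6 (-65), KLF2 (-248 and 17) and the second EGR2 window (8). TGACGTCA, the full cAMP response element (1.85% of windows), and TGANTCA, the AP-1 site (7.71%), had no exact match in the member windows. Shorter or inexact forms of these sites were not searched for. The upstream stretches of EGR1 (chr5:138465229-138465468, plus strand), EGR2 (chr10:62816377-62816616, minus strand) and KLF4 (chr9:107489780-107490019, minus strand) are shown 5′ to 3′, the first pair for their CArG boxes and KLF4 because its RNA was lower at 0.1 µM PFOS at both times. Capitals mark CArG boxes, which start with CC and end with GG, and matches to GCGNGGGCG on either strand. The matches describe letters only.
EGR1: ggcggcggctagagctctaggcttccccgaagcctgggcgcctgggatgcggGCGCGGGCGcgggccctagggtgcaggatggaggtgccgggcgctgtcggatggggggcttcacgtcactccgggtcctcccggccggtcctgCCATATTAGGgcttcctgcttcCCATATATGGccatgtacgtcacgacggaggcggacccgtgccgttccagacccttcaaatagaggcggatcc
EGR2: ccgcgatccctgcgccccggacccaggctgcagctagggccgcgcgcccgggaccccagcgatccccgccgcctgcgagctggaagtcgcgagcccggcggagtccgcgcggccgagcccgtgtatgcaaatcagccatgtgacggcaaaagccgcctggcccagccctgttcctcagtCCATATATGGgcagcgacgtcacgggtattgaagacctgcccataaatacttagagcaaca
KLF4: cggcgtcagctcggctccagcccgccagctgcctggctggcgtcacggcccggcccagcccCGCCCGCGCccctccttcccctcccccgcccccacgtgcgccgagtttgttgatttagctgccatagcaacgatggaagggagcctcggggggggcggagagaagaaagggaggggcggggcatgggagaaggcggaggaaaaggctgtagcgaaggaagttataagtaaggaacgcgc

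Levels of different genes were compared in TPM, which allow for transcript length. The median over the 32 libraries was highest for IER3 (322 TPM, range 168 to 403), followed by IER2 (216), EGR1 (188), KLF10 (163), KLF6 (117), IER5 (82.9), KLF2 (76.4), KLF4 (14.01), EGR2 (0.35) and EGR3 (0.18). IER3 lay above 97.8% and EGR1 above 96.2% of genes with values. The library ranges of IER3, IER2, EGR1 and KLF10 overlapped, as did those of IER5 and KLF2 and those of EGR2 and EGR3. EGR1, down to 86.8 TPM in its lowest library, also overlapped KLF6, IER5 and KLF2, and KLF2 (up to 110.04 TPM) overlapped KLF6. KLF10 (lowest 137 TPM) did not overlap KLF6 (101 to 131), KLF6 did not overlap IER5 (highest 96.6), KLF2 (lowest 46.9) did not overlap KLF4 (7.29 to 23.5), and EGR2 did not exceed 0.81. EGR2 had 2 to 27 counts per library and EGR3 1 to 18, so only large changes of these genes were detectable at this depth. EGR1 spanned the widest range of the abundant members, 3.92-fold from its lowest to its highest library, while KLF6 spanned 1.30-fold.

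**Figure D1:**
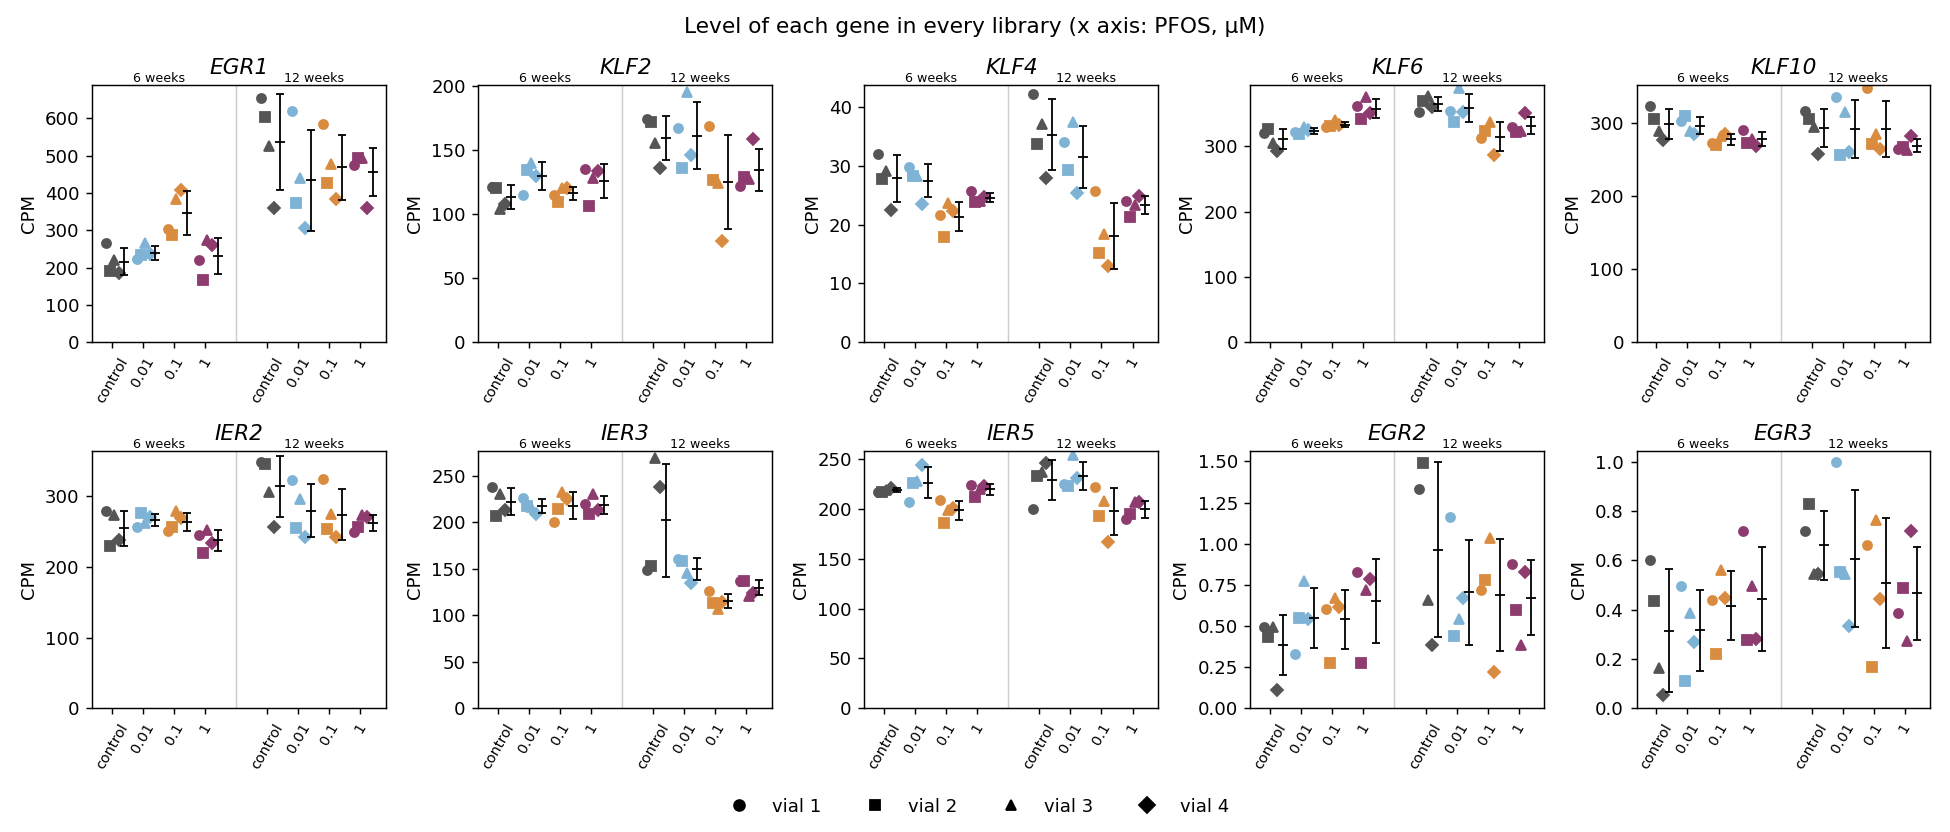
CPM of each gene (y axis, linear from 0) in all 32 libraries by PFOS concentration and time (x axis). Symbols are the 4 vials and the bar is the mean ± SD. The mean of EGR1 is higher at 12 weeks in every exposure (at 0.1 µM this did not pass the test), the 0.1 µM groups hold the lowest KLF4 libraries at both times, and the control libraries of IER3 at 12 weeks fall into a low and a high pair.

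Total counts were 17907057 to 18553350 per library. Transcripts of liver genes (ALB, AFP, AHSG and APOB, 4 of 4 with values) summed to 0 or 1 count in the control and 0.01 µM libraries at 6 weeks, but to 85 to 128 counts at 0.1 µM and 85 to 108 counts at 1 µM. At 12 weeks they summed to 67 to 164 counts in all libraries other than the control of vial 3, which had 799. They move with the 6-week comparisons of 0.1 and 1 µM and with time in the control and 0.01 µM cells, and their part in the results was not tested. In bulk RNA, fewer cells of a type and less RNA per cell cannot be told apart. Values without the vial 3 control at 12 weeks are given for the members wherever they change a call.

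At 0.01 µM PFOS no member passed at either time by edgeR's quasi-likelihood test (adjusted p of at most 0.05), against 0.0% of all genes tested. DESeq2 also called 0 members at both times, and 1 member had an unadjusted p under 0.05 at each time, as did 9.6% and 8.48% of all genes. At 6 weeks this was KLF2, whose control libraries of 121, 121, 104 and 108 CPM overlapped the exposed libraries of 115, 134, 140 and 130.1 CPM (log2 fold change 0.20 ± 0.08 (SE), adjusted p = 0.473 by edgeR). At 12 weeks it was IER3, with a log2 fold change of -0.44 ± 0.16 (adjusted p = 0.565).

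At 6 weeks EGR1 was higher and KLF4 and IER5 were lower at 0.1 µM PFOS than in the control, 3 of the 9 members tested. Of all 12836 genes tested, 4.24% were called, 1.55% higher and 2.69% lower, and no called member changed 2-fold, as 0.0857% of genes did. The 544 genes called became 128, 570, 22 and 77 without vials 1, 2, 3 and 4 in turn and 49 in a fit of all 32 libraries. EGR3 was too low to be tested at 6 weeks. The median log2 fold change of the members was 0.03, with 4 of 9 below 0, beside 49.9% of all genes.

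EGR1, the growth factor-induced zinc-finger activator, stood at 266, 190.3, 221 and 186 CPM in the 6-week control of vials 1 to 4 and at 304, 289, 382 and 408 CPM at 0.1 µM. All 4 exposed libraries lay above all 4 control libraries. The log2 fold change was 0.68 ± 0.17 (SE, n = 4 per group; edgeR adjusted p = 0.0432), and the exact two-sided permutation p was 0.0286, the smallest that 4 against 4 libraries can give. The call was lost without vial 1 (adjusted p = 0.0860), vial 3 (0.231) or vial 4 (0.265) and kept without vial 2, and it was lost when only the 8 libraries (0.0807) or all 32 (0.117) entered the fit and with no filter on low counts (0.0526). At 1 µM the libraries had 222, 167, 275 and 262 CPM and overlapped the control (log2 fold change 0.10 ± 0.17, adjusted p = 0.850). At 0.01 µM they had 222, 233, 265 and 237 CPM.

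EGR2, known from myelinating Schwann cells, had 9, 8, 9 and 2 counts in the 6-week control, 11, 5, 12 and 11 at 0.1 µM and 15, 5, 13 and 14 at 1 µM. The groups overlapped, and the log2 fold changes were 0.48 ± 0.41 at 0.1 µM and 0.75 ± 0.39 at 1 µM (adjusted p = 0.538 and 0.412 by edgeR). EGR3, which acts in lymphocytes and muscle spindles, had 1 to 11 counts in the control and 4 to 13 in both higher exposures.

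KLF4, one of the factors used to reprogramme cells, had 31.98, 27.8, 29.1 and 22.4 CPM in the 6-week control and 21.6, 18.0, 23.6 and 22.2 CPM at 0.1 µM. It was lower in 4 of 4 vials, although the groups overlapped through the control of vial 4. The log2 fold change was -0.39 ± 0.10 (edgeR adjusted p = 0.0371, exact permutation p = 0.0571). This call was lost without vial 1 (0.155), vial 2 (0.132) or vial 3 (0.186), in the fits of 8 (0.0776) and 32 libraries (0.238), and with no filter on low counts (0.0574). At 1 µM KLF4 had 25.6, 23.8, 24.1 and 24.7 CPM (-0.18 ± 0.10, adjusted p = 0.423).

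KLF6, a factor induced by wounding and growth factors, was the only member called at 1 µM and 6 weeks, where 0.28% of genes were called and 0.132% were higher (36 genes in all, and 12 to 178 with a vial left out). It had 320.0, 326, 304 and 293 CPM without PFOS, 329, 331, 339 and 332 CPM with 0.1 µM and 361, 342, 375 and 350.4 CPM at 1 µM. Both exposed groups lay above the control in every library. The log2 fold change was 0.20 ± 0.03 at 1 µM (edgeR adjusted p = 0.0037) and 0.10 ± 0.03 at 0.1 µM (0.102). Without vial 3 or vial 4 the adjusted p at 1 µM was 0.206 and 0.0650, and with all 32 libraries 0.107.

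IER5, which activates the heat shock factor HSF1, had 218, 217, 219 and 222 CPM in the 6-week control and 209.6, 186, 199 and 201 CPM at 0.1 µM, with no overlap. The log2 fold change was small, -0.14 ± 0.04 (edgeR adjusted p = 0.0456, exact permutation p = 0.0286), and the call was lost without vial 2 (0.154), vial 3 (0.251) or vial 4 (0.151) and with all 32 libraries (0.280). At 1 µM IER5 had 212 to 224 CPM. Of the 6 heat shock genes, 5 fell at 0.1 µM, among them HSPA8 (-0.27 ± 0.04) and DNAJB1 (-0.24 ± 0.04), and 4 fell at 1 µM, which became 1 and 3 without vial 3. Of all genes, 4.24% and 0.28% were called in these comparisons. The heat shock genes summed to 3373 to 3650 CPM in the control, 2984 to 3135 CPM at 0.1 µM and 2888 to 3090 CPM at 1 µM. Their part in the member results was not tested.

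The other members did not pass at 6 weeks. IER3 had 207 to 238 CPM in the control and 200 to 233 CPM in the exposed libraries, and IER2, a nuclear protein of early growth responses, 229 to 279 and 219 to 280 CPM. KLF10, also known as TGF-beta-inducible early gene, had log2 fold changes of -0.11 ± 0.04 at both 0.1 µM and 1 µM (edgeR adjusted p = 0.126 and 0.252). At 0.1 µM 3 members and at 1 µM 1 member had groups that did not overlap, against 12.3% and 6.87% of genes with a mean of at least 10 counts.

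**Figure D2:**
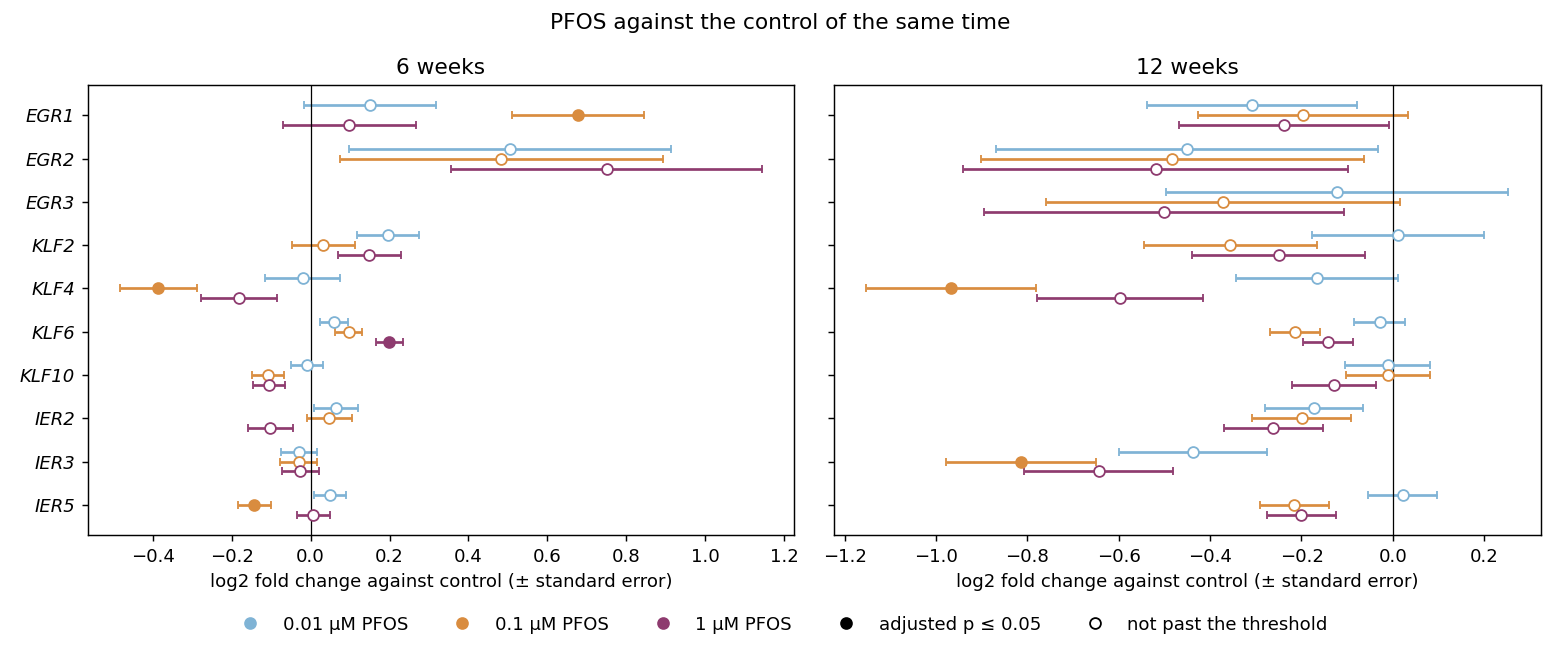
Log2 fold change against the control of the same time (x axis, bars ± SE) for each gene (y axis) at 0.01, 0.1 and 1 µM PFOS, with 6 weeks on the left and 12 weeks on the right and separate x scales. Filled points passed the adjusted p of 0.05. EGR1, KLF4 and IER5 at 0.1 µM and KLF6 at 1 µM are filled at 6 weeks, and KLF4 and IER3 at 0.1 µM at 12 weeks.

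At 12 weeks KLF4 and IER3 were lower at 0.1 µM PFOS than in the control, 2 of the 10 members, where 1.07% of 12742 genes were called and 0.542% were lower. The 136 genes called became 26 without the vial 3 control, 315, 59, 4 and 11 without vials 1, 2, 3 and 4 in turn, and 540 in a fit of all 32 libraries. All 10 members had a log2 fold change below 0 at 0.1 and at 1 µM, beside 51.9% and 51.7% of all genes, with medians of -0.29 and -0.26. At 0.01 µM 8 of 10 members were also below 0, beside 48.9% of all genes, with a median of -0.14. All exposures share the same 4 control libraries and members vary together, so these counts are not independent. At 1 µM no member passed by edgeR, where 0.22% of genes did (28 genes, and 14 without the vial 3 control). Of the members 5 had an unadjusted p under 0.05, as did 8.75% of all genes, and DESeq2 called IER3.

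KLF4 had 42.2, 33.7, 37.1 and 27.9 CPM in the 12-week control and 25.8, 15.1, 18.4 and 12.9 CPM at 0.1 µM. Every exposed library was below every control library. The log2 fold change was -0.97 ± 0.19 (edgeR adjusted p = 0.0245, exact permutation p = 0.0286), the largest of any member against its control in size among those called. The call was lost without vial 2 (adjusted p = 0.169), vial 3 (0.378) or vial 4 (0.0585), without the vial 3 control alone (0.104) and in the fit of 8 libraries (0.116), with log2 fold changes from -1.09 to -0.91 over all alternatives. At 1 µM KLF4 had 23.9, 21.3, 23.3 and 24.8 CPM, again below all control libraries (-0.60 ± 0.18, adjusted p = 0.316, and 0.0444 in the fit of 8 libraries). At 0.01 µM it had 33.9, 29.3, 37.3 and 25.3 CPM and overlapped the control.

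IER3, a short-lived regulator of survival and of ERK signalling, had 149, 153, 269 and 238 CPM in the 12-week control. Vials 1 and 2 were low and vials 3 and 4 high, and the exposed groups did not show this split. At 0.1 µM it had 126, 113, 107 and 115 CPM, all below the control, and at 1 µM 137, 136, 121 and 124 CPM, also below it. The log2 fold change at 0.1 µM was -0.81 ± 0.16 (edgeR adjusted p = 0.0357, exact permutation p = 0.0286). The call was lost with vial as a replicate block (0.0813), without vial 2 (0.0808), vial 3 (0.378) or vial 4 (0.305), and in the fit of 8 libraries (0.162). The vial 3 control had both the highest IER3 level and the highest sum of liver transcripts, and without it the log2 fold change was -0.64 and the adjusted p 0.0829. The vial 4 control, with 238 CPM of IER3, had 79 liver counts, beside 72 and 106 in vials 1 and 2. The part of liver transcripts in the IER3 values was not tested. At 1 µM the log2 fold change was -0.64 ± 0.16 (adjusted p = 0.175 by edgeR, 0.0217 by DESeq2).

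KLF6 had 352, 369, 376 and 360 CPM in the 12-week control, 312, 324, 337 and 286 CPM at 0.1 µM and 329, 322, 323 and 350.3 CPM at 1 µM. Both groups lay below the control, which was the opposite of 6 weeks. The log2 fold changes were -0.21 ± 0.06 (edgeR adjusted p = 0.0621) and -0.14 ± 0.06 (0.451), so neither passed, although DESeq2 (0.0116) and the fit of 32 libraries (0.00489) called KLF6 at 0.1 µM. IER5 had log2 fold changes of -0.22 ± 0.08 and -0.20 ± 0.08 at 0.1 and 1 µM (adjusted p = 0.187 and 0.425), and was called at 0.1 µM without vial 1 (0.0154) and with all 32 libraries (0.0479).

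EGR1 did not differ detectably at 12 weeks. The control had 655, 603, 527 and 361 CPM, 0.1 µM had 586, 427, 479 and 384 CPM, and 1 µM had 475, 494, 494 and 360 CPM. Vial 4 was the lowest library in every 12-week group, at 305 to 384 CPM. The log2 fold changes were -0.20 ± 0.23 at 0.1 µM and -0.24 ± 0.23 at 1 µM (edgeR adjusted p = 0.723 and 0.797). EGR2 had 13, 14, 19 and 4 counts at 0.1 µM and 16, 11, 7 and 15 at 1 µM, against 24, 27, 12 and 7 in the control (log2 fold changes -0.48 ± 0.42 and -0.52 ± 0.42, adjusted p = 0.612 and 0.746), so all 3 groups overlapped. EGR3 had 3 to 14 counts at 0.1 µM and 5 to 13 at 1 µM, against 10 to 15 in the control.

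KLF2, a factor known from flow-exposed endothelium, gave 174, 172, 155 and 136 CPM without PFOS, against 169, 126, 125 and 79.1 CPM with 0.1 µM (log2 fold change -0.36 ± 0.19, adjusted p = 0.392), lower in 4 of 4 vials. IER2 was lower in 4 of 4 vials at 0.1 µM (-0.20 ± 0.11, adjusted p = 0.392), and KLF10 had a log2 fold change of -0.01 ± 0.09. KLF4, KLF6 and IER3 were the 3 members whose groups did not overlap at 0.1 µM, and again at 1 µM, against 8.36% and 6.64% of genes.

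Between 1 and 0.1 µM no member passed by edgeR or DESeq2 at either time, where 0.0857% of genes did at 6 weeks and 0.0% at 12 weeks. Unadjusted p-values under 0.05 were found for 4 members at 6 weeks, EGR1, KLF6, IER2 and IER5, and 0 at 12 weeks, beside 6.25% and 7.72% of all genes. EGR1 was lower at 1 µM than at 0.1 µM in all 4 vials at 6 weeks, with no overlap (log2 fold change -0.58 ± 0.17, edgeR adjusted p = 0.553). KLF6 (0.10 ± 0.03) and IER5 (0.15 ± 0.04) were higher in 4 of 4 vials without overlap, at adjusted p = 0.600 and 0.303, as was KLF4 (0.20 ± 0.10, 0.796). IER2 was lower in 4 of 4 vials with overlap (-0.15 ± 0.06, 0.696). A total of 4.3% of genes had groups that did not overlap in this comparison.

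In control cells, between 6 and 12 weeks, EGR1, EGR2, KLF2, KLF6 and IER2 rose, 5 of 10 members, where 36.6% of 12988 genes were called and 17.3% rose. EGR1 and EGR2 rose more than 2-fold. Of all genes, 3.32% were called with a 2-fold change in either direction, 82 genes higher and 349 lower. Culture time cannot be told apart from any batch of passage, extraction or sequencing. Liver transcripts also rose with time in the control, and markers of leukocytes (3 genes, 7.77 to 9.90 CPM at 6 weeks and 3.16 to 6.00 CPM at 12 weeks, CD3E at 0) and endothelium (3 genes, 1.80 to 2.46 and 0.819 to 1.21 CPM) were lower, with CD14 and PECAM1 called. The epithelial markers (2 genes) went from 2.92 to 4.36 CPM to 1.94 to 3.77 CPM, with CDH1 called lower, and the oocyte markers (2 genes) from 17.8 to 24.3 CPM to 23.04 to 28.9 CPM, with ZP3 called higher. Of 11 granulosa markers tested, CYP11A1, FST and GATA4 were called lower and WT1 higher. The 14 granulosa markers with values summed to 267 to 279 CPM at 6 weeks and 252 to 260 CPM at 12 weeks. The 6 heat shock genes summed to 3373 to 3650 CPM at 6 weeks and 3755 to 3965 CPM at 12 weeks. Of these, HSPA1B and HSPB1 were called higher. The part of all these markers and heat shock genes in the result was not tested.

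EGR1 had 186 to 266 CPM in the 6-week control and 361 to 655 CPM in the 12-week control, with no overlap, which 31.7% of genes also showed, and a log2 fold change of 1.31 ± 0.21 (edgeR adjusted p = 2.5e-05, called in all 10 alternatives). It also rose at 0.01 µM (0.86 ± 0.21, 0.00162) and at 1 µM (0.98 ± 0.21, 0.000816). At 0.1 µM, where the 6-week level was already 289 to 408 CPM, the log2 fold change was 0.44 ± 0.20 (0.0883), and it passed without vial 4 (0.61, 0.0234). Whether these time effects differ from that of the control is given with the interaction.

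EGR2, with 24, 27, 12 and 7 counts in the 12-week control, rose by the same log2 amount as EGR1 but with a larger error, 1.31 ± 0.44 (edgeR adjusted p = 0.0182). It was higher in 4 of 4 vials, although the groups overlapped, and the call was lost without vial 1 (0.0807) or vial 2 (0.124). EGR3 had 13, 15, 10 and 10 counts against 11, 8, 3 and 1 (1.05 ± 0.46, adjusted p = 0.0692), and passed with vial as a replicate block (0.0471) and without vial 1 (0.0367). In the exposed cells neither gene passed between times.

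KLF2 rose in the control from 104 to 121 CPM to 136 to 174 CPM (log2 fold change 0.49 ± 0.15, edgeR adjusted p = 0.0117). The call was lost without vial 2 (0.0700) or vial 3 (0.0800). KLF6 rose from 293 to 326 CPM to 352 to 376 CPM (0.23 ± 0.05, adjusted p = 0.000159) and also at 0.01 µM (0.15 ± 0.05, 0.00944, lost without vial 3 at 0.0850). At 0.1 and 1 µM the KLF6 log2 fold changes were -0.08 ± 0.05 and -0.11 ± 0.05 (0.150 and 0.0652), and at 1 µM it passed without vial 4 (0.0263). KLF4 had 0.34 ± 0.15 in the control (0.0767), and 0.0151 with vial as a replicate block.

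IER2 rose in the control from 229 to 279 CPM to 256 to 348 CPM (log2 fold change 0.30 ± 0.09, edgeR adjusted p = 0.0130), a call lost without vial 2 (0.174). In the exposed cells IER3 fell by 0.54 ± 0.12 on the log2 scale at 0.01 µM, by 0.92 ± 0.12 at 0.1 µM and by 0.75 ± 0.12 at 1 µM (adjusted p = 0.00097, 2.17e-06 and 4.85e-05), each called in all 9 alternatives. The groups did not overlap in any of these, which held for 33.6%, 40.1% and 30.7% of genes. CD14, PECAM1 and CDH1 were also called lower in all 3 exposures and VWF at 0.1 and 1 µM, while leukocyte markers summed to 6.78 to 10.7 CPM at 6 weeks and 1.93 to 5.44 CPM at 12 weeks. Endothelial markers summed to 1.62 to 2.38 and 0.544 to 1.33 CPM and epithelial markers to 2.59 to 3.86 and 1.83 to 2.85 CPM in these cells. Of 11 granulosa markers tested, 5, 3 and 4 were called lower and 0, 1 and 2 higher at 0.01, 0.1 and 1 µM. Of 6 heat shock genes, 2, 2 and 4 were called higher and 0 lower. The part of all these markers and heat shock genes in the result was not tested. For IER3 in the control the log2 fold change was -0.14 ± 0.12 (0.402), and -0.30 with an adjusted p of 0.0263 without the vial 3 library at 12 weeks. The members called were 3 of 10 at 0.01 µM, 1 at 0.1 µM and 2 at 1 µM, beside 42.7%, 40.3% and 30.1% of all genes.

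**Figure D3:**
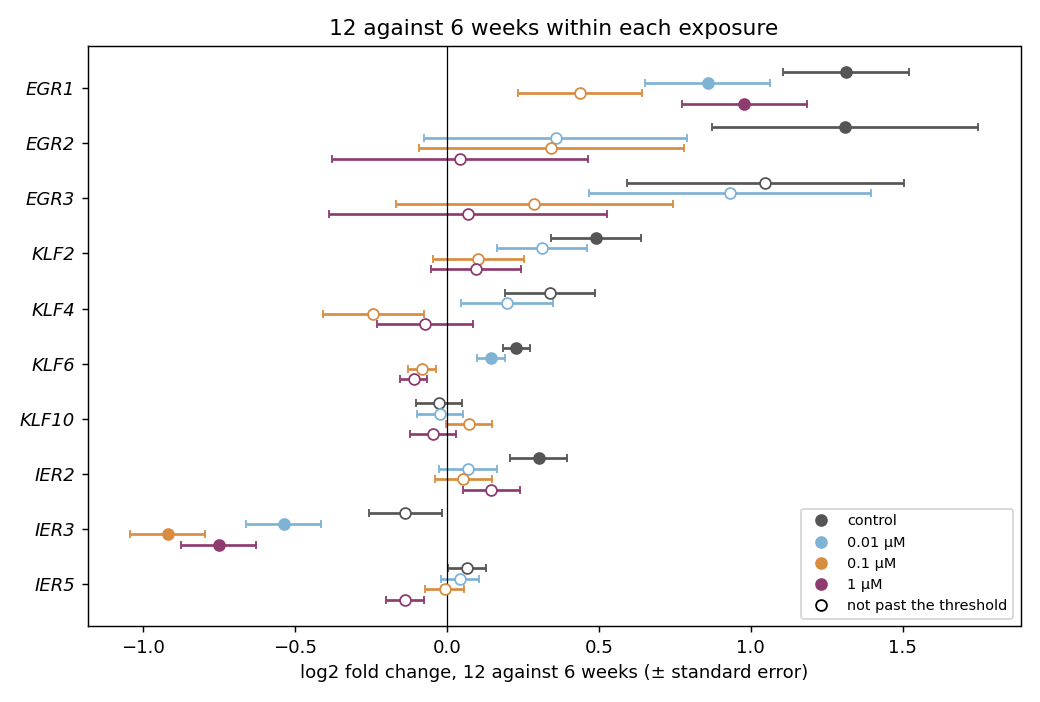
Log2 fold change between 6 and 12 weeks (x axis, bars ± SE) for each gene (y axis) in control cells and at 0.01, 0.1 and 1 µM PFOS. Filled points passed the adjusted p of 0.05. EGR1 is right of 0 in every exposure, and IER3 is left of 0 and filled in the 3 PFOS exposures.

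Whether the PFOS effect itself differed between times was tested as an interaction over all 32 libraries. KLF6 was the only member to pass, at 0.1 µM (-0.31 ± 0.06 on the log2 scale, edgeR adjusted p = 0.0271) and at 1 µM (-0.34 ± 0.06, 0.0249), where 0.208% and 0.123% of genes were called. These were 27 and 16 genes, and 13 and 5 without the vial 3 control at 12 weeks. KLF6 was above the control at 6 weeks and under it at 12 weeks in both exposures. Leaving out vials 1, 2, 3 and 4 in turn gave adjusted p-values of 0.0521, 0.0566, 0.125 and 0.467 at 0.1 µM and 0.0511, 0.0730, 0.369 and 0.0859 at 1 µM, and leaving out the vial 3 control at 12 weeks gave 0.0646 and 0.0516, so every such call was lost.

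For the other members the interaction at 0.1 µM was -0.78 ± 0.17 for IER3 (edgeR adjusted p = 0.0556, 0.00243 by DESeq2), -0.87 ± 0.29 for EGR1 (0.154) and -0.58 ± 0.22 for KLF4 (0.218). IER3 passed without vial 1 (0.0222). At 1 µM it was -0.61 ± 0.17 for IER3 (0.160, and 0.0358 by DESeq2) and -1.27 ± 0.61 for EGR2 (0.405). All 10 members were below 0 at 1 µM, and 9 of 10 at both 0.1 and 0.01 µM. Of all genes, 50.1%, 50.3% and 47.5% were below 0 at 1, 0.1 and 0.01 µM. The interactions share the same control libraries, so these counts are not independent. At 0.01 µM no member passed by edgeR or DESeq2, where 0.0% of genes did, and 1 member had an unadjusted p under 0.05, as did 7.48% of all genes.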

How the data were processed

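Stranded poly(A) libraries were sequenced on DNBSEQ. Per the labels, the authors used GRCh38.p14, HISAT2 2.0.4, Bowtie2 2.2.5 and RSEM 1.2.8 and deposited expected counts per gene without normalization (7.68% of values were not whole) and TPM values. The FPKM values and a normalized signal were not used here. The expected counts, as deposited, were rounded and tested with edgeR 4.0.16 (R 4.3.3; limma 3.58.1): a robust quasi-likelihood fit with TMM scaling and filterByExpr, two-sided, adjusted by Benjamini-Hochberg over all genes tested and called at an adjusted p of at most 0.05. The 16 libraries of a time entered each PFOS comparison, and all 32 the comparisons of times and the interaction. CPM used TMM-scaled library totals. Exact permutation tests used log2(CPM + 1). DESeq2 1.42.0, other scaling and filters, other sets of libraries and leaving out vials were alternatives. The code was tested on simulated data.

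Groups came from the labels, which also say that the flask of each vial was split over the groups, so replicate numbers pair samples. For the more abundant genes, the group mean of each gene was subtracted before same-numbered libraries were correlated. These deviations, not the levels themselves, had a mean r of 0.0581 to 0.165 over 6 pairs of groups at 6 weeks and -0.285 to 0.18 at 12 weeks. The lowest was for the control with 1 µM at 12 weeks, negative in every vial (-0.337 to -0.183). The pairing therefore rests on the labels. Within groups, 48 pairs of libraries differed by a chi-square per degree of freedom of 2.30 to 16.2, so none was a repeat. The vials belong to 1 line, so p-values measure the spread between its cultures. Intervals from counts were not used, and depth limits EGR2 and EGR3. The genes named were all members, at most 4 called genes per list and comparison, and the 5 genes most like EGR1. The members and lists were chosen with earlier results of these data known.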

Additional observations from a re-analysis of the deposited data

Results flagged for a closer look

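In the 1 µM group at 12 weeks, EGR1 in vial 4 (360 CPM) lay apart from the other 3 libraries (475 to 494 CPM). The gap was 0.858 of the range of the group, over Dixon's limit for 4 samples. In the 6-week control, EGR2 in vial 4 (0.11 CPM, against 0.436 to 0.496 CPM) lay apart by 0.844 of the range, at 2 counts against 8 or 9. Of 80 sets of a gene and a group, 2 were marked in this way, and chance marks about 1 in 20.

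The effect of PFOS on KLF6 differed between 6 and 12 weeks by -0.311 on the log2 scale at 0.1 µM and by -0.338 at 1 µM (interaction, edgeR adjusted p = 0.0271 and 0.0249), with the control lower than the exposed cells at 6 weeks and higher at 12 weeks. At each concentration the call was kept in 5 of 10 alternatives and was lost whichever vial was left out.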

How the results depend on the processing

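Over the alternatives, 145 of the values for called members kept their call, 46 lost it, and 0 reversed. Those not called gained a call in 18 cases, while 43 moved by more than their standard error and 1253 did neither. With vial as a replicate block, 1 member was called at 0.1 µM and 12 weeks in place of 2, and the block changed the count by more than 1.5 times in no other comparison. Members called at 0.1 µM and 6 weeks were 1 with no filter on low counts and with only the 8 libraries of the groups, and 0 with all 32 libraries. At 1 µM and 6 weeks 0 were called with all 32 libraries. At 0.1 µM and 12 weeks 0 were called with 8 libraries, 4 with 32 libraries and 0 without the vial 3 control. At 1 µM and 12 weeks 1 was called by DESeq2, with 8 libraries and with 32 libraries. The differences of the effect between times gave 2 members each by DESeq2 at 0.1 and 1 µM and 0 each without the vial 3 control at 12 weeks.

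Leaving out each vial in turn gave 0 to 1 members at 0.1 µM and 0 to 1 at 1 µM after 6 weeks, and 0 to 3 at 0.1 µM after 12 weeks. It gave 2 to 5 between times in the control, 1 to 2 at 0.1 µM, 0 to 1 for the difference of the 0.1 µM effect and 0 to 0 for that of 1 µM. These fits have 3 libraries per group. At 1 to 27 counts, EGR2 and EGR3 are limited by depth. Over all genes, DESeq2 called 129 in place of 36 at 1 µM and 6 weeks, 282 in place of 136 at 0.1 µM and 89 in place of 28 at 1 µM after 12 weeks, and 142 in place of 27 and 76 in place of 16 for the difference of the 0.1 and 1 µM effects between times.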

Other observations

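Other immediate early genes, 33 of 34 tested, passed at 0.1 µM PFOS after 12 weeks in 10 cases, all of them lower, where 1.07% of all genes were called. The largest were FOSB (log2 fold change -0.91 ± 0.18 (SE), edgeR adjusted p = 0.0383), ATF3 (-0.80 ± 0.09, 0.000778), PHLDA1 (-0.64 ± 0.13, 0.0309) and JUN (-0.59 ± 0.10, 0.0064), which encode AP-1 and stress-response factors and a pleckstrin-homology protein. Without the vial 3 control 5 of these genes were called, with FOSB at 0.146, PHLDA1 at 0.104, ATF3 at 0.00417 and JUN at 0.0243, and without all of vial 3 or vial 4 the count was 1 and 3. At 1 µM and 12 weeks, where 0.22% of all genes were called, CSRNP1 (-0.52 ± 0.08, 0.00223), ATF3 (-0.50 ± 0.09, 0.0308) and SPRY2 (-0.46 ± 0.06, 0.000338) fell. ATF3 lost its call without the vial 3 control (0.139). At 6 weeks and 0.1 µM, where 4.24% of all genes were called, CCN2 and DUSP1 rose by 0.26 each. NR4A3 (-1.32 ± 0.18, 0.00385) and CSRNP1 (-0.23 ± 0.04, 0.00176) fell there. Without vial 3 CSRNP1 alone kept its call. At 1 µM and 6 weeks CCN2, CSRNP1 and PHLDA1 were called, 2 higher and 1 lower, where 0.28% of all genes were called. Between 6 and 12 weeks in the control 12 of the 33 rose and 4 fell, where 36.6% of all genes were called and 17.3% rose. FOSB (0.92 ± 0.17), FOS (0.83 ± 0.15), NR4A3 (0.83 ± 0.23) and ATF3 (0.78 ± 0.08) were the largest. In the exposed cells 9 rose and 8 fell at 0.01 µM, 3 rose and 11 fell at 0.1 µM, and 5 rose and 11 fell at 1 µM. Of all genes, 42.7%, 40.3% and 30.1% were called there. The effect of 0.1 µM differed between times for 6 of the 33, where 0.208% of all genes were called. All 6 moved towards lower values at 12 weeks, led by BTG2 (-0.86 ± 0.18, 0.0395) and JUN (-0.78 ± 0.12, 0.00244). Without the vial 3 control 4 were called, with BTG2 at 0.0872 and JUN at 0.00199, and without vial 3 or vial 4 the count was 2 and 0.

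Of 20 relatives and cofactors of the members, 16 were tested. KLF9, a factor known to respond to steroid hormones, fell at 12 weeks at 0.1 µM (-0.48 ± 0.09, edgeR adjusted p = 0.0127) and at 1 µM (-0.43 ± 0.09, 0.0425). The share of all genes called was 1.07% and 0.22%. Both KLF9 calls were lost without the vial 3 control (0.0530 and 0.193). The EGR corepressor NAB2 rose between 6 and 12 weeks in the control (0.42 ± 0.08), at 0.01 µM (0.52 ± 0.07), at 0.1 µM (0.47 ± 0.08) and at 1 µM (0.32 ± 0.08). KLF12, SP1 and SP3 were also called in each of these comparisons. Of the 16 relatives tested, 6, 7, 9 and 8 rose and 0, 1, 2 and 2 fell. Of all genes, 36.6%, 42.7%, 40.3% and 30.1% were called. Of 13 serum response and ERK regulators, MAP2K2 was the only one called against a control (-0.14 ± 0.03 at 0.1 µM and 6 weeks, 0.0235, and 0.124 without vial 3). Between 6 and 12 weeks in the control 6 of the 13 fell and 1 rose, CREB1 (0.22 ± 0.05), where 36.6% of all genes were called.

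The genes most like EGR1 over the 32 libraries, by Pearson's r of log2(CPM + 1) among 12157 genes, were FOS (0.906), ZNF608 (0.885), SREBF1 (0.865), SLITRK5 (0.864) and TCEA3 (0.855). The libraries share vials and times, so these values only describe how levels varied together over the libraries. FOS rose from 324 to 428 CPM in the 6-week control to 480 to 860 CPM in the 12-week control. Among the 8 abundant members, r was highest for EGR1 with IER2 (0.729) and lowest for EGR1 with IER3 (-0.579). KLF2 had r = 0.695 with KLF6 and 0.693 with KLF4.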
